A study of Homo sapiens with 6 samples.

Results

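mTORC1, the mechanistic target of rapamycin complex 1, was followed at the transcript level in THP-1 cells, an established human line of acute monocytic leukaemia, with and without the sodium ionophore monensin. The gene set was chosen by symbol and holds 10 genes of the 58395 in each count file: MTOR, RPTOR, DEPTOR, TSC1, TSC2, RHEB, SESN1, SESN2, SESN3 and DDIT4. All 10 passed the filter on low counts, which left 16542 genes to test. Bulk RNA was sequenced in 6 libraries, of which 3 came from cells given no exposure and 3 from cells given 1 µM monensin for 16 h. Both groups were grown in RPMI medium with fetal bovine serum and glutamine. No vehicle is named for the untreated cells, so an effect of a vehicle and one of monensin cannot be told apart. The labels do not say that the 3 libraries of a group came from separate cultures, and the p-values measure no more than sample to sample spread, which may be technical.

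mTORC1 is a protein kinase complex on the lysosome surface that promotes protein synthesis and growth and restrains autophagy. MTOR is its kinase, RPTOR its scaffold that binds substrates, and DEPTOR an inhibitory subunit. The small GTPase RHEB switches the kinase on, and the TSC1 and TSC2 complex switches RHEB off. The sestrins SESN1, SESN2 and SESN3 inhibit mTORC1 by binding GATOR2, part of the amino acid branch, and SESN2 also binds leucine. DDIT4, also called REDD1, inhibits mTORC1 through the TSC complex. Several of these inhibitors are known as transcriptional stress genes, with ATF4, FOXO and hypoxia factors among their described regulators.

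Each library held 22975888 to 25710513 reads counted in genes. Of 8 monocytic marker genes, 7 reached a mean of 1 CPM (counts scaled to library size) in untreated libraries and 8 with monensin, since CD14 went from 0.480 ± 0.0691 to 2.37 ± 0.289 CPM. Their summed level was 1321 to 1377 CPM in untreated libraries and 872 to 938 CPM in monensin libraries, a difference that rests on LYZ (791 ± 14.3 to 292 ± 24.2 CPM). Without LYZ the sum was 545 to 578 CPM untreated and 598 to 649 CPM with monensin. In edgeR's quasi-likelihood test 3 of the 8 rose (FCGR1A, SPI1 and CD14), 3 fell (LYZ, CD33 and MPO) and 2 did not pass. The 3 erythroid and 3 epithelial markers were at 0 in all 6 libraries. The summed T cell markers stayed at or below 0.195 CPM. The sum of 3 B cell markers was 1.42 to 1.98 CPM untreated and 2.53 to 2.66 CPM with monensin, and that of 3 fibroblast markers 0.386 to 0.842 CPM and 1.03 to 1.32 CPM. The part of these marker differences in the results was not tested.

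The promoter sequences of SESN2, SESN3 and DDIT4 are shown because these were the members past a 2-fold change, and that of TSC2 because it was the only member window with a CARE match, the C/EBP-ATF response element that ATF4 binds. Each run is the 250 bases before a RefSeq start on GRCh38.p14, read 5′ to 3′ on the gene's strand: SESN2 at chr1:28259268-28259517 (plus strand), SESN3 at chr11:95232476-95232725 (minus strand), DDIT4 at chr10:72273674-72273923 (plus strand) and the first of the TSC2 starts at chr16:2047735-2047984 (plus strand). Capitals mark matches on either strand to the motifs named here.
SESN2: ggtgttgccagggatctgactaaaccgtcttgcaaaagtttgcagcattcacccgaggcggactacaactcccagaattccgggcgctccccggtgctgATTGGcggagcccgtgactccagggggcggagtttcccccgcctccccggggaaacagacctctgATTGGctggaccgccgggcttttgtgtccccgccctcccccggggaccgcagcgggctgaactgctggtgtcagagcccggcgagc
SESN3: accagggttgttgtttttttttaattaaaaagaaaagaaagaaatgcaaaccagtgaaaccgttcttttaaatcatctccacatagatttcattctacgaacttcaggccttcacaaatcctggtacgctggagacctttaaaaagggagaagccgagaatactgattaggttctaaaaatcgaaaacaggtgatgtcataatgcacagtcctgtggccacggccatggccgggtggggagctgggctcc
DDIT4: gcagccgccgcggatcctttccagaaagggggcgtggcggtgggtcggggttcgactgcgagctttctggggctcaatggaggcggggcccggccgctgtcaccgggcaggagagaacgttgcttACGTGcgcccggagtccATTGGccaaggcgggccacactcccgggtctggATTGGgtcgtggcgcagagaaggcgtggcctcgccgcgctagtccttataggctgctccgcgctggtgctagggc
TSC2: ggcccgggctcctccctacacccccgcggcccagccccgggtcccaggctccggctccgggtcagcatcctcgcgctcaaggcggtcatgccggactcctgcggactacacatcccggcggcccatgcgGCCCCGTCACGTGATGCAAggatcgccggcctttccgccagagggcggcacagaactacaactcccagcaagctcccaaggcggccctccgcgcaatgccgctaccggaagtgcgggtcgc
The capitals in the SESN2 run are a pair of CCAAT boxes, read on the opposite strand as ATTGG. The DDIT4 run holds the same box at a pair of places and 1 ACGTG, the core of the hypoxia response element, at position -125 from the start. In the TSC2 run the E-box CACGTG at position -114 overlaps TGATGCAA at position -110, a match to CARE (TGATGNAA), and an antioxidant response element (TGACNNNGC) on the other strand runs into the E-box. The SESN3 run held no match.

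RefSeq windows were found for 9 of the 10 genes, 12 windows in all, and none was found for DEPTOR. Among all 35116 windows of that length, CARE was in 3.14%, the cyclic AMP response element TGACGTCA in 1.65%, the E-box in 6.34% and the hypoxia core in 18.5%, which the E-box contains. The FOXO site GTAAACA was in 2.98%, the antioxidant response element in 10.9% and CCAAT in 32%. The windows of RPTOR and TSC1 held no match either, and the MTOR window held 3 CCAAT boxes. The RHEB window held the same kinds of match as that of DDIT4, with 2 CCAAT boxes and 1 hypoxia core at position -81. Windows 2 and 3 of SESN1 each held 1 CCAAT box, and window 2 also held 1 antioxidant response element. A match is a description of letters and not a site in use, and no match says only that these letters are not in this window.

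Of the 10 genes, 4 rose with monensin (DDIT4, SESN2, TSC1 and TSC2) and 4 fell (SESN3, MTOR, DEPTOR and RPTOR), while RHEB and SESN1 did not pass the test. Calls were made at a Benjamini-Hochberg adjusted p under 0.05 in edgeR's quasi-likelihood test. Among all genes tested, 34.1% rose and 33.7% fell, so the share of members called was close to that of genes at large. Past a 2-fold change, 2 members rose and 1 fell, against 9.41% and 3.83% of all genes tested. The groups did not overlap in 8 of 10 members, against 71.1% of all genes. The median log2 fold change was -0.07 over the members and 0.02 over all genes. Fewer cells of a type and less RNA per cell cannot be told apart in these bulk samples.

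**Figure D1:**
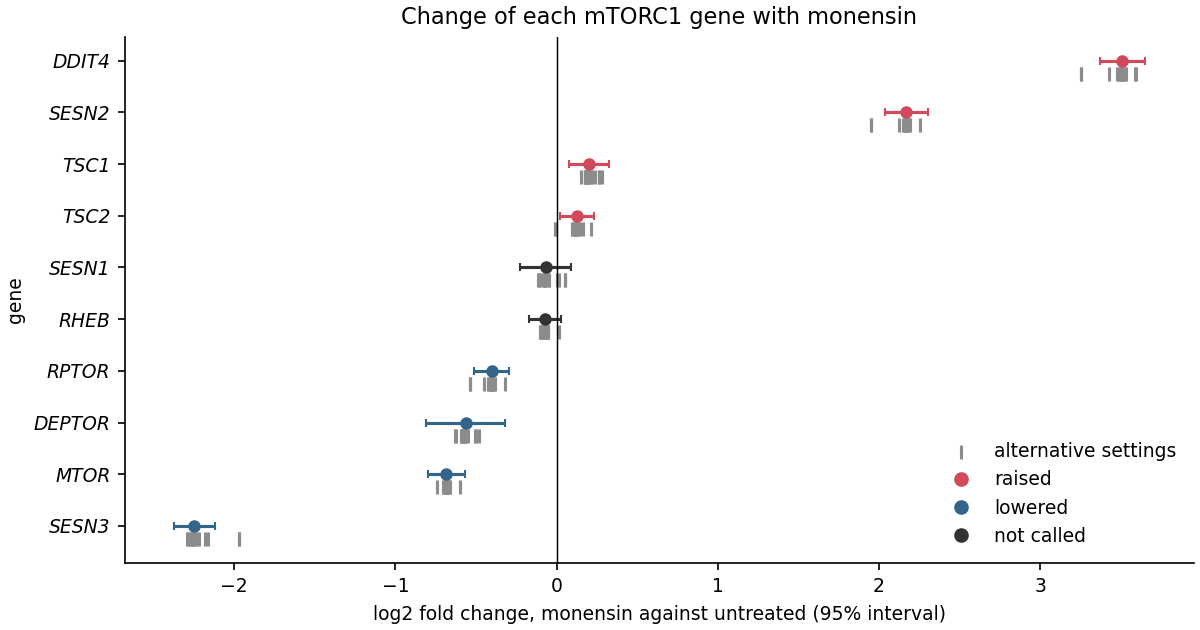
The log2 fold change of each of the 10 genes, monensin against untreated, is plotted with its 95% interval from the quasi-likelihood fit, coloured by call, and grey ticks give its value in the 15 alternative fits. DDIT4 (3.51) and SESN2 (2.17) lie far to the raised side, SESN3 (-2.25) far to the lowered side, and the other 7 genes between -0.68 and 0.20.

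The kinase, its scaffold and its inhibitory subunit all fell by less than 2-fold. MTOR (chromosome 1, 11106535 to 11262507 on GRCh38, minus strand), the catalytic subunit shared by both mTOR complexes, measured 95.7, 107 and 108 CPM in the untreated libraries and 66.0, 63.9 and 63.5 CPM with monensin. The 3 monensin libraries all lay below the 3 untreated ones. Its mean went from 104 ± 6.79 to 64.5 ± 1.37 CPM (SD, n = 3 per group), or -0.68 on the log2 scale (adjusted p = 1.59e-08, with an SE of 0.05), which is 1.61-fold lower.

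RPTOR (chromosome 17, 80544819 to 80966371, plus strand), the scaffold that recruits substrates to mTORC1, measured 69.5, 75.1 and 75.5 CPM untreated and 56.8, 54.5 and 55.0 CPM with monensin. The groups did not overlap. RPTOR changed by -0.40 on the log2 scale (adjusted p = 3.51e-06, with an SE of 0.05). The 95% interval of the fold was 0.702 to 0.815 for RPTOR and 0.576 to 0.673 for MTOR, and the difference between them was not tested.

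DEPTOR (chromosome 8, 119873717 to 120050913, plus strand), which binds MTOR and inhibits it, had few reads. Its counts were 169, 142 and 144 untreated and 109, 114 and 89 with monensin, or 6.23 ± 0.491 and 4.21 ± 0.375 CPM. Every monensin library lay below every untreated one. DEPTOR changed by -0.56 on the log2 scale, with the widest standard error of the 10 genes (adjusted p = 0.000453, with an SE of 0.12).

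The switch upstream of the kinase moved little. RHEB (chromosome 7, 151466012 to 151520120, minus strand), the GTPase that activates mTORC1, measured 87.6, 85.0 and 83.7 CPM untreated and 80.8, 78.5 and 84.9 CPM with monensin. The groups overlapped, since monensin replicate 3 lay above 1 of the untreated libraries. Its fold was 0.952 with a 95% interval of 0.888 to 1.02 (adjusted p = 0.20), and the missed threshold does not show that RHEB was unchanged. It passed in 1 of 15 other fits, that with a correction for GC content and gene length (-0.09 on the log2 scale, adjusted p = 0.0417), and not when the replicate block was added to that correction (-0.09, adjusted p = 0.0695).

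TSC1 (chromosome 9, 132891348 to 132946874, minus strand), or hamartin, stabilises TSC2. It measured 34.0, 35.3 and 38.4 CPM untreated and 42.4, 41.0 and 40.2 CPM with monensin. The lowest monensin library lay just above the highest untreated one. TSC1 rose 1.15-fold, which is 0.20 on the log2 scale (adjusted p = 0.00689, with an SE of 0.06).

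TSC2 (chromosome 16, 2047465 to 2089487, plus strand), or tuberin, carries the domain that inactivates RHEB. It measured 69.6, 70.2 and 72.1 CPM untreated and 78.5, 72.7 and 80.3 CPM with monensin. Monensin replicate 2 was close to the untreated range. The log2 fold change of 0.13 (adjusted p = 0.0346, with an SE of 0.05) was past the threshold in 5 of 15 other fits, and it was -0.0065 (adjusted p = 0.899) after the correction for GC content and gene length. Leaving out any 1 library other than monensin replicate 2 ended the call, with adjusted p-values of 0.0617 to 0.115. TSC2 shares 778 exonic bases with PKD1 and 402 with NTHL1 on the opposite strand, whose means went from 67.8 to 130 CPM and from 33.8 to 23.6 CPM. The library kit was directional, but the strand setting of the counting is not stated in the sources used here. The part of these neighbours in the TSC2 value was not tested.

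**Figure D2:**
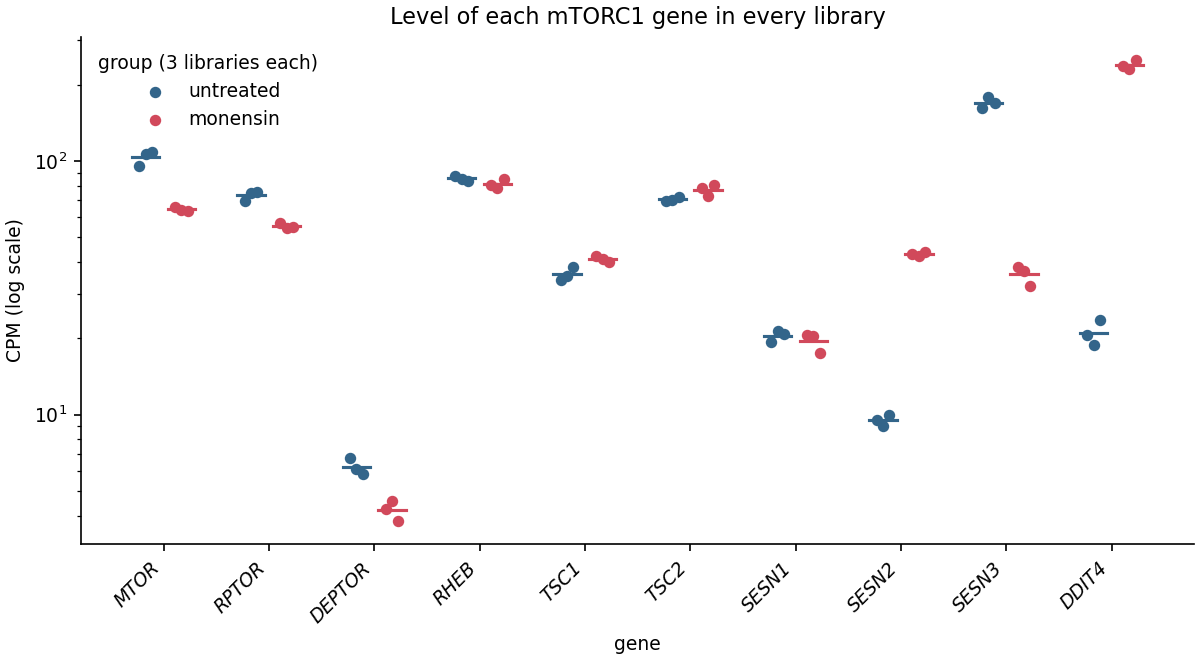
Each point is the level of 1 gene in 1 library in CPM on a log axis, with untreated and monensin libraries side by side and a bar at each group's mean. The 2 groups stand far apart for SESN2, SESN3 and DDIT4 and share part of their range for RHEB and SESN1.

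The sestrins went 3 ways: SESN2 rose 4.50-fold, SESN3 fell 4.75-fold and SESN1 did not pass the test. SESN2 (chromosome 1, 28259527 to 28282491, plus strand), a sestrin that binds leucine, measured 9.54, 9.05 and 9.99 CPM untreated and 43.0, 42.2 and 43.7 CPM with monensin. Each group was tight and the groups lay far apart. The log2 fold change was 2.17 (adjusted p = 2.55e-13, with an SE of 0.06), with a 95% interval of the fold of 4.10 to 4.95, and it was the 240th highest of the 16542 genes tested. The CCAAT boxes shown above were the only matches in its window.

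SESN3 (chromosome 11, 95165513 to 95232541, minus strand), a sestrin known as a FOXO target, was the most abundant of the family in untreated cells. It measured 162, 178 and 169 CPM there and 38.1, 36.9 and 32.3 CPM with monensin. No monensin library came near the untreated range. The log2 fold change was -2.25 (adjusted p = 9.15e-14, with an SE of 0.06), the 48th lowest of all genes tested. SESN3 shares 93 exonic bases with the antisense gene AP000787.1, which had 50, 54 and 54 counts untreated and 17 in each monensin library, against 4045 to 4184 and 753 to 978 counts for SESN3.

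SESN1 (chromosome 6, 108986437 to 109094819, minus strand), the third sestrin, measured 19.4, 21.4 and 20.7 CPM untreated and 20.6, 20.5 and 17.5 CPM with monensin. The groups overlapped, and monensin replicate 3 was the lowest of the 6. Its fold was 0.954 with a 95% interval of 0.855 to 1.06 (adjusted p = 0.429).

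Per kilobase of exons, the make-up of the family turned over. SESN3 made up 70.4% ± 0.793 of the summed sestrin level in untreated libraries, SESN1 17.5% ± 0.189 and SESN2 12.1% ± 0.882 (SD, n = 3). With monensin SESN2 made up 63.4% ± 2.41, SESN1 19.4% ± 1.34 and SESN3 17.2% ± 1.09. The sum itself went from 22.8 ± 0.876 to 19.6 ± 0.478 CPM per kilobase, with no overlap between the groups. These shares were computed from the values above and add no test of their own. They depend on the length used, since SESN1 has 5121 exonic bases but 3509 in its longest transcript. By the longest transcript SESN3, SESN1 and SESN2 were at 17.8 ± 0.831, 5.84 ± 0.283 and 2.76 ± 0.137 CPM per kilobase untreated. With monensin SESN2, SESN1 and SESN3 were then at 12.4 ± 0.217, 5.56 ± 0.501 and 3.74 ± 0.322. Without division by length SESN3 was 85.0% untreated, and SESN2 was 43.8% and SESN3 36.4% with monensin. The size of the change in the sum also depends on that division. In CPM alone SESN3 fell from 170 ± 7.95 to 35.7 ± 3.08, more than SESN2 rose (9.53 ± 0.473 to 43.0 ± 0.750).

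**Figure D3:**
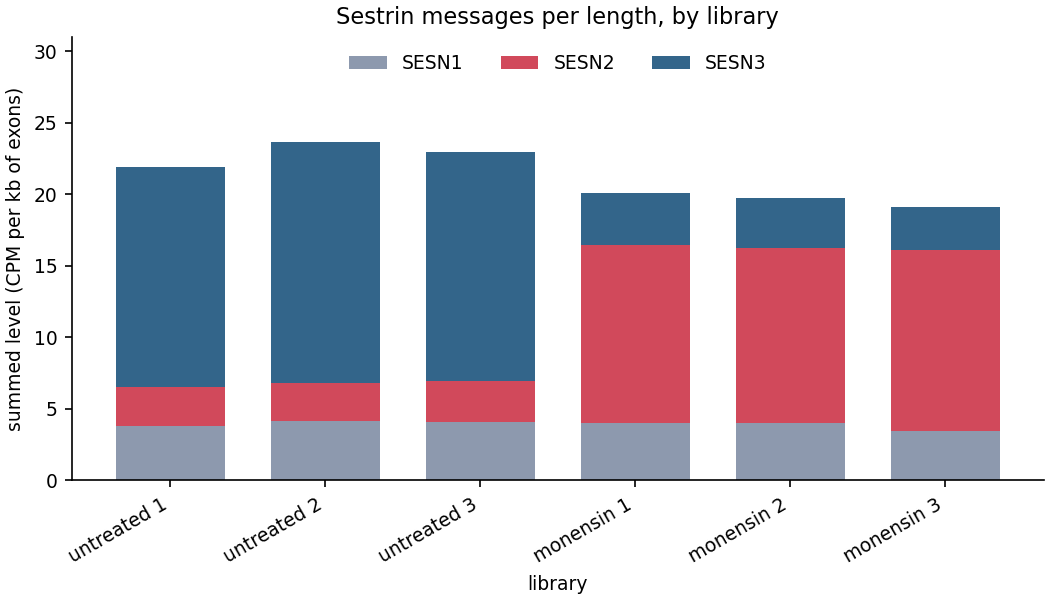
Each stacked bar is 1 library, untreated or monensin, and its height is the summed level of the sestrins in CPM per kilobase of exons, split by gene. SESN3 is the largest segment in the 3 untreated libraries and SESN2 in the 3 monensin libraries, while SESN1 averages 4.0 and 3.81.

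DDIT4 (chromosome 10, 72273920 to 72276036, plus strand), the stress-induced inhibitor that acts through the TSC complex, changed most of the 10 genes. It measured 20.7, 18.8 and 23.5 CPM untreated and 238, 231 and 251 CPM with monensin, from 439 to 582 counts and from 5779 to 6101 counts. The lowest monensin library lay far above the highest untreated one. DDIT4 changed by 3.51 on the log2 scale (adjusted p = 1.38e-15, with an SE of 0.07), a fold of 11.4 with a 95% interval of 10.3 to 12.6, and the 63rd highest of all genes tested. The antisense gene DDIT4-AS1 shares 847 exonic bases with it and had 2, 3 and 1 counts untreated and 42, 28 and 4 with monensin. The related gene DDIT4L did not pass the test, at 0.343 ± 0.0217 and 0.511 ± 0.0784 CPM (log2 fold change 0.58, adjusted p = 0.148).

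The authors' deposited table of regulated genes, in which every absolute log2 fold change is above 1, lists 3 of the 10. The log2 fold changes in the authors' deposited table were 3.49 for DDIT4, 2.15 for SESN2 and -2.27 for SESN3.

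The order of levels per kilobase of exons changed with the treatment. In untreated cells it ran from RHEB (24.2 ± 0.566 CPM per kilobase) through SESN3 (16.1 ± 0.752), DDIT4 (10.2 ± 1.16), MTOR (8.54 ± 0.561) and RPTOR (7.12 ± 0.326) to SESN1 (4.0 ± 0.194), TSC2 (3.60 ± 0.0663), SESN2 (2.76 ± 0.137), DEPTOR (2.38 ± 0.187) and TSC1 (2.04 ± 0.128). No neighbours in that order overlapped over their 3 libraries. With monensin DDIT4 came first (117 ± 4.82), then RHEB (23.0 ± 0.905), SESN2 (12.4 ± 0.217), RPTOR (5.38 ± 0.120) and MTOR (5.32 ± 0.113), whose ranges overlapped. TSC2 (3.93 ± 0.202), SESN1 (3.81 ± 0.343) and SESN3 (3.38 ± 0.291) followed with overlapping ranges, and TSC1 (2.34 ± 0.0631) and DEPTOR (1.60 ± 0.143) came last. When the longest transcript was taken as the length, RHEB, SESN3 and DDIT4 had the 3 highest means untreated and DDIT4, RHEB and SESN2 with monensin. The place after the first 2 was then not separated in either group, since the range of DDIT4 overlapped that of MTOR untreated (12.0 ± 1.36 and 11.9 ± 0.783 CPM per kilobase) and that of SESN2 overlapped that of TSC2 with monensin (12.4 ± 0.217 and 12.2 ± 0.626). MTOR with RPTOR, RPTOR with TSC2 and SESN2 with DEPTOR overlapped as well in untreated cells. By this length TSC2 moved up to place 6 untreated and place 4 with monensin.

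**Figure D4:**
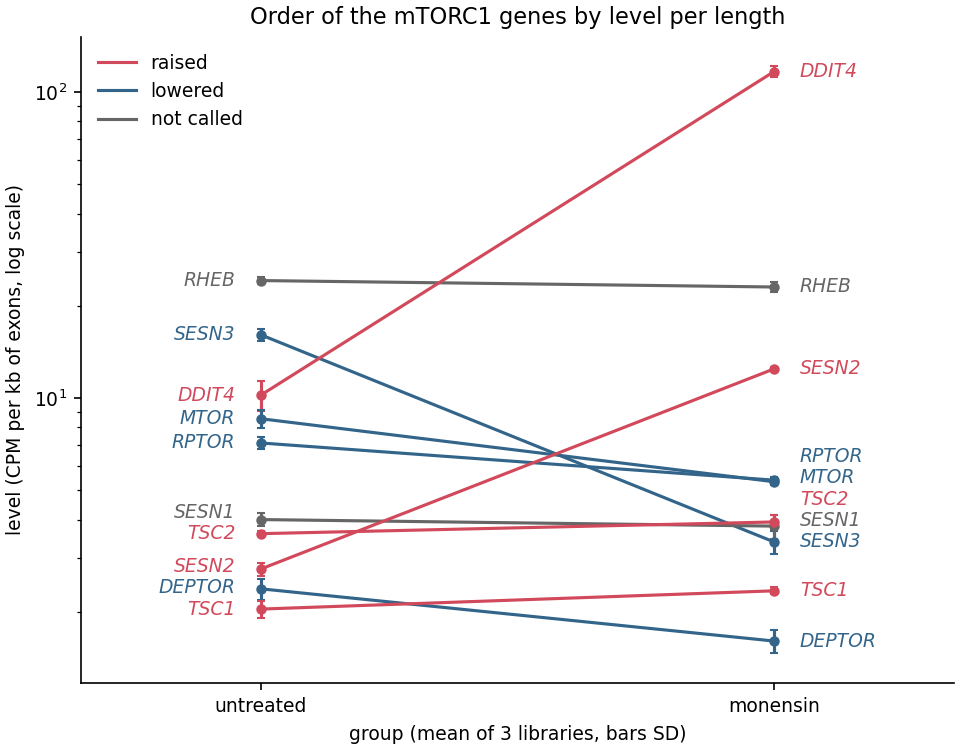
The mean level of each gene in CPM per kilobase of exons, on a log axis, is joined between untreated and monensin cells, with bars for the SD of 3 libraries. DDIT4 climbs from place 3 to place 1 and SESN2 from place 8 to place 3, while SESN3 drops from place 2 to place 8.

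For the 3 genes past a 2-fold change, the closest patterns among 11563 genes were taken as the smallest Euclidean distance over the 6 libraries, in log2 CPM centred on the untreated mean. For SESN2 these were HERPUD1, an endoplasmic reticulum stress gene (distance 0.0851, 64.3 ± 2.44 to 280 ± 4.17 CPM), AMDHD2, an enzyme of amino sugar metabolism (0.0918), and the nuclear receptor PPARG (0.151). For SESN3 they were CSPG5 (0.0713), the DNA repair exonuclease EXO1 (0.151, 117 ± 7.54 to 24.8 ± 0.496 CPM) and TEX15 (0.158). For DDIT4 they were the stress transcription factor DDIT3 (0.226, 12.2 ± 0.448 to 149 ± 8.28 CPM), the kinase RPS6KA2 (0.383) and the protease TMPRSS9 (0.480). Such a distance rests mostly on the size of the change between the groups and is a description with no test.

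The partners of the kinase went both ways. Of 9 tested genes for mTOR complex partners and mTORC2, 5 fell and 2 rose, beside 33.7% lowered and 34.1% raised over all genes. Their median was -0.21 on the log2 scale. MLST8, the subunit shared by both complexes, was one of the raised genes and rose from 52.5 ± 1.79 to 129 ± 5.63 CPM (log2 fold change 1.30, adjusted p = 4.66e-12). TTI1 and TELO2, cofactors that help assemble mTOR complexes, fell from 60.8 ± 1.96 to 31.2 ± 0.373 CPM and from 129 ± 5.81 to 75.2 ± 6.70 CPM. MAPKAP1, a subunit of mTORC2, fell by 0.36 on the log2 scale. RICTOR, the mTORC2 scaffold, and PRR5, named here after their values were seen, were called at -0.29 and 0.32, and neither call held after the GC and length correction (adjusted p = 0.958 and 0.295).

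Among the relatives of the TSC and RHEB axis, 1 of 3 tested genes rose and none fell. It was RHEBL1, a RHEB relative at a low level (0.536 ± 0.10 to 1.77 ± 0.475 CPM), named after its values were seen. TBC1D7, the third TSC subunit, measured 6.52 ± 0.780 and 7.06 ± 0.552 CPM (adjusted p = 0.356). After the GC and length correction TBC1D7 was called at 0.33 (adjusted p = 0.0128).

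Of the 12 genes of GATOR1, GATOR2 and KICSTOR, the complexes through which sestrins and amino acids act on mTORC1, 7 rose and 2 fell, with a median of 0.22. SEC13, a GATOR2 subunit also found in COPII coats and nuclear pores, rose from 111 ± 4.72 to 165 ± 5.13 CPM, while its GATOR2 partner SEH1L fell from 115 ± 1.34 to 74.4 ± 2.08 CPM. The KICSTOR subunit KICS2 fell by 0.47 on the log2 scale. After the GC and length correction 4 of the 12 rose and 4 fell.

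Of 12 tested amino acid sensors and Rag anchors, 8 rose and 1 fell, with a median of 0.20. The number raised was 6 to 9 over the 16 alternatives. After the GC and length correction LAMTOR1 (-0.01, adjusted p = 0.812) and LAMTOR5 (0.06, adjusted p = 0.168) lost the call. SLC38A9 gained it there (0.38, adjusted p = 6.42e-05), and these genes are named after their values were seen. RRAGD and RRAGC, the GTPases that pair with RRAGA or RRAGB to hold mTORC1 at the lysosome, rose from 28.4 ± 1.76 to 73.2 ± 4.14 CPM and from 14.1 ± 0.654 to 34.0 ± 1.02 CPM. RRAGB rose by 0.46 and the Ragulator subunit LAMTOR4 by 0.57 on the log2 scale. The lowered gene was LAMTOR2 (-0.17, adjusted p = 0.0225), named after its values were seen, whose call was lost with total counts alone (adjusted p = 0.220) and without untreated replicate 1, monensin replicate 1 or monensin replicate 2.

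**Figure D5:**
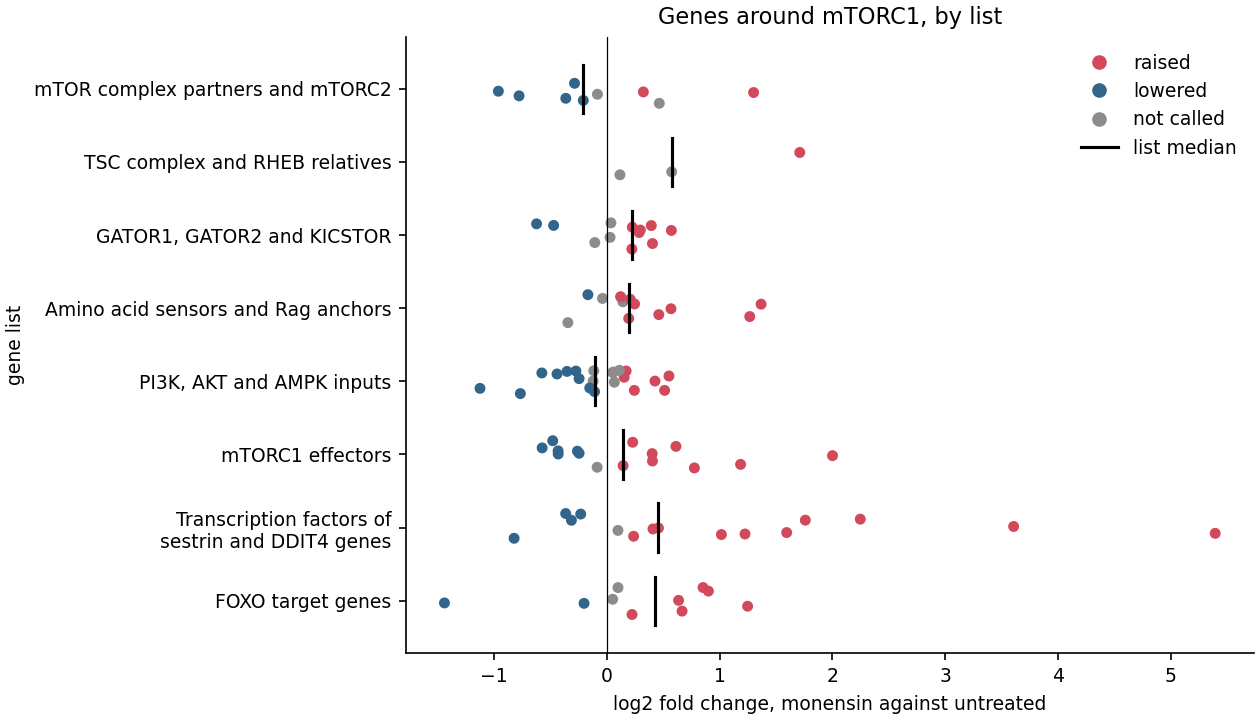
Each point is the log2 fold change of 1 tested gene, monensin against untreated, grouped by 8 pathway lists, with a line at each list's median. Medians run from -0.21 for the mTOR complex partners and mTORC2 to 0.58 for the 3 TSC and RHEB relatives, and every list but the latter has genes on both sides that passed the test.

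The growth factor and energy inputs were mixed: of 21 tested genes for PI3K, AKT and AMPK, 6 rose and 9 fell (median -0.11). PIK3CG, a leukocyte PI3K catalytic subunit, fell from 44.7 ± 4.38 to 20.5 ± 0.617 CPM, and PRKAA1, an AMPK catalytic subunit, from 110 ± 5.03 to 64.4 ± 2.06 CPM. The insulin receptor INSR rose by 0.55 and the receptor IGF1R fell by 0.58 on the log2 scale. The number raised was 3 with DESeq2 and also 3 without untreated replicate 1 or without monensin replicate 1.

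Of 15 tested mTORC1 effectors, 8 rose and 6 fell (median 0.14). GRB10, an adaptor that mTORC1 stabilises and that damps insulin signalling, rose from 21.6 ± 0.609 to 86.4 ± 2.92 CPM. EIF4EBP1, the translation repressor that mTORC1 inactivates, rose from 91.4 ± 2.46 to 208 ± 15.7 CPM. Its relative EIF4EBP2, named here after its values were seen, fell from 347 ± 11.1 to 249 ± 4.45 CPM (log2 fold change -0.48, adjusted p = 3.75e-08). ULK1, the autophagy kinase that mTORC1 restrains, and PDCD4, a translation inhibitor, rose by 0.78 and 0.61 on the log2 scale. RNA levels do not measure the phosphorylation by which mTORC1 acts on these proteins.

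Among 15 tested transcription factors described as acting on the sestrins or DDIT4, 10 rose and 4 fell (median 0.46). ATF4, the main factor of the integrated stress response, rose from 238 ± 5.99 to 806 ± 34.2 CPM and its partner CEBPB from 29.7 ± 1.24 to 89.6 ± 2.21 CPM. DDIT3 and NUPR1, stress genes downstream of ATF4, rose by 3.61 and 5.39 on the log2 scale. FOXO3 rose by 0.24 (adjusted p = 0.00640), but not without monensin replicate 1 (adjusted p = 0.0534). HIF1A fell by 0.31 (adjusted p = 0.000459), and the value was -0.09 (adjusted p = 0.0839) after the GC and length correction. The hypoxia factor EPAS1 and FOXO4, named here after their values were seen, went up. They rose by 1.23 and 1.02 on the log2 scale (adjusted p = 2.67e-08 and 4.72e-07), and both calls held in the 15 other fits.

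Of 10 FOXO target genes, the class that SESN3 is known from, 6 rose and 2 fell (median 0.43). CCNG2 rose from 11.7 ± 0.630 to 27.8 ± 2.60 CPM and GADD45B and BCL6 by 0.67 and 0.64 on the log2 scale, while TXNIP, an arrestin that binds thioredoxin, fell from 251 ± 16.3 to 92.7 ± 3.19 CPM. These counts describe the lists and stand beside the 34.1% raised and 33.7% lowered over all genes.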

How the data were processed

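RNA from 6 THP-1 samples was sequenced as single reads of 75 nt from a directional kit, per the labels' protocols. The authors deposited raw counts of reads per gene. The submitters' processing notes name bcl2fastq, HISAT2 2.1.0, Trimmomatic 038, DESeq2 1.22.2 and HTSeq 0.11.1, and the build hg38 (GRCh38). For the annotation release and the strand setting of the counting, nothing is given in the sources used here. Also deposited by the authors were log2 fold changes of 2410 regulated genes, without errors. The 5 tally lines per library, which name no gene, made up 19.3% ± 0.388 of tallied reads untreated and 21.6% ± 0.398 with monensin, and were left out.

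The quasi-likelihood test of edgeR 4.0.16 (R 4.3.3) was run on the counts, after its filter on low counts and TMM normalization, over 16542 genes with Benjamini-Hochberg adjustment. Standard errors were derived from the log2 fold change and its F statistic, and 95% intervals from the t distribution at the fit's degrees of freedom. CPM used TMM-adjusted library sizes. Positions, exonic lengths and GC content came from GENCODE 29, which holds 99.79% of the gene identifiers. Promoter sequences came from RefSeq. All 113 genes of the 9 pathway lists were matched, KICS2 by an older symbol.

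Besides the 10 members, the text names the 4 genes of each list with the largest absolute changes, where their average log2 CPM was 2 or more, ATF4, DDIT3, HIF1A and FOXO3, and the 3 closest patterns of each member past a 2-fold change. A few named genes and 1 list are left out of the text. The members and lists were chosen with earlier results of these data known. Alternatives were DESeq2's RLE scaling, total counts alone, a stricter filter and no filter, the replicate number as a block, removal of trends with GC content and gene length, both together, no mitochondrial genes, DESeq2 1.42.0, an adjusted p under 0.01 and each library left out. No library repeated another, since replicates differed by chi-square values of 1.93 to 5.09 per degree of freedom. The tests were tried on simulated data. Intervals cover these libraries only, and without molecular identifiers reads do not count molecules.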

Additional observations from a re-analysis of the deposited data

How the results depend on the processing

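The calls of MTOR, RPTOR, DEPTOR, TSC1, SESN2, SESN3 and DDIT4 were kept in the 15 other fits run, with log2 fold changes of -0.74 to -0.60, -0.54 to -0.32, -0.63 to -0.48, 0.15 to 0.28, 1.95 to 2.26, -2.30 to -1.97 and 3.25 to 3.60. RHEB passed in 1 and SESN1 in 0 of them. TSC2 turned to -0.0065 after the GC and length correction and to -0.0068 with the replicate block as well. The replicate block alone ended the TSC2 call (adjusted p = 0.0528) and no other member's. Over all tested genes, same-numbered libraries correlated at -0.119, 0.140 and 0.0414 in their deviations from the group mean. Differently numbered libraries correlated at -0.200 to 0.159, so the numbers were not taken as pairs. With the block 5515 genes rose and 5435 fell, against 5638 and 5570. Total counts alone moved the median of all genes to 0.11. After the GC and length correction, with or without the replicate block, raised genes went from 2 to 1 (mTOR partners), 1 to 2 (TSC relatives) and 7 to 4 (GATOR), and lowered ones from 2 to 4 (GATOR), 1 to 2 (sensors and Rag anchors) and 4 to 2 (transcription factors). At an adjusted p under 0.01 the mTOR partners had 1 raised, the sensors 0 lowered and the PI3K list 3 raised. The sensors also had 0 lowered with total counts alone, and the PI3K list 3 raised with DESeq2. Leaving out 1 library gave 1 to 3 raised mTOR partners (1 without untreated replicate 2 or monensin replicate 3), 0 to 1 lowered sensors and 3 to 5 raised PI3K genes. Without division by length, SESN1, SESN2 and SESN3 were 10.3%, 4.78% and 85.0% of the untreated sestrin sum, and SESN2 and SESN3 43.8% and 36.4% with monensin. The causes were not tested. DEPTOR, with 89 to 169 counts, had the least depth.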

Other observations

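Reads of genes that overlap a member on the other strand were few for most members. MTOR-AS1 had 1 count in the 3 untreated libraries together and 0 with monensin, GFI1B at TSC1 had 1 and 1, and AL390208.1 at SESN1 had 9 and 23. RPL31P7, a processed pseudogene in an intron of RPTOR, had 274 and 365.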
